A study of Mus musculus with 6 samples.

Results

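The 3 samples of a tetraploid mouse embryonic fibroblast line were compared with each other, gene by gene, to find what set each of them apart. They are 3 of the 6 arrays of the series, and the other 3 hold a diploid line that served here only to show how far arrays of one line normally spread. All samples of the tetraploid line entered the comparison, and none was chosen by a measured value. The labels describe the tetraploid cells as transformed and as abnormal in DNA content, and the diploid cells as the normal control; no treatment, time point, strain or embryonic age is given for either. Both lines were grown to near confluence in DMEM with fetal bovine serum, and ribosomal RNA was reduced before whole-transcript labelling. Each ploidy is represented by 1 line, so ploidy, transformation and the line itself cannot be told apart. Nothing in the labels tells if the 3 tetraploid samples came from 3 cultures, from different passages or from different clones, so the spread between them may be biological, technical or both.

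Embryonic fibroblasts are mesenchymal cells that secrete collagen-rich matrix, contract through actin and myosin filaments, and adjust both to serum, density and growth factors. Cells that double their genome often go on to gain and lose whole chromosomes or parts of them, so that cells of one culture can come to carry different karyotypes. In cells with an extra or a missing chromosome, the transcripts of most genes on it tend to follow its copy number. DNA copy number was not measured in this study.

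For each of 19856 genes, 1 probe set was used, and the measure was the deposited log2 value of an array minus the mean of the other 2 arrays of the same line, here called the difference. The 3 differences of a gene sum to 0 and are not independent. A gene was said to set an array apart where its value lay at least 2-fold (1 on the log2 scale) above both other arrays, or below both, while those 2 lay within 2-fold of each other. Before that, values were raised to a background level, the 95th percentile of 1027 olfactory receptor genes on the same array, which was 7.18, 7.41 and 7.28 on tetraploid arrays 1, 2 and 3. Each array is 1 sample, so no test and no p-value belongs to a single array, and all counts below are descriptions set beside the same counts in the diploid line.

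The 6 arrays were alike in overall scale, with medians over the genes between 7.45 and 7.50, and 10212 to 10846 genes were above background on each tetraploid array. Of the 11 fibroblast markers, Col1a1, Col1a2, Col3a1, Vim, S100a4, Thy1, Pdgfrb, Prrx1, Fn1 and Dcn were above background on all 3 tetraploid arrays, and Vim was at 13.63, 13.56 and 13.55. Lum, a small proteoglycan of collagen fibrils, was below background on all 3, at 3.62, 6.44 and 5.24. Of the markers of other cell types, 22 of 25 macrophage and leukocyte genes, 14 of 21 endothelial genes and 13 of 23 epithelial genes were below background on all 3 tetraploid arrays, but only 11 of 21 cartilage and bone genes and 9 of 22 neural and glial genes were. The mean level of the macrophage and leukocyte genes was 4.21 to 4.61 on the tetraploid arrays and 5.0 to 6.94 on the diploid arrays, so the diploid line is a wide reference for such genes. In RNA of whole cultures, fewer cells of a type and less RNA per cell cannot be told apart. The tetraploid arrays also had features in common: Kdm5d, Eif2s3y and Uty on chromosome Y, the X inactivation transcript Xist, and the imprinted growth inhibitors Grb10 and Cdkn1c were all below background on every one. Xist was below background on the diploid arrays as well, at 5.03, 4.60 and 5.29. Kdm5d, Eif2s3y, Uty, Grb10 and Cdkn1c were above background there, at diploid means of 7.78, 9.99, 8.50, 12.66 and 10.26.

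The tetraploid samples lay much further from each other than the diploid samples did. In all, 578 genes, 2.91% of those measured, set 1 tetraploid array apart, against 63 genes, 0.317%, for the diploid arrays. Array 1 stood out most, with 295 genes (1.49%), of which 199 were higher (1%) and 96 lower (0.483%). Array 2 had 172 (0.866%), with 77 higher (0.388%) and 95 lower (0.478%), and array 3 had 111 (0.559%), with 67 higher (0.337%) and 44 lower (0.222%). The split on array 1 depended on the scaling: it was 149 higher and 122 lower after quantile normalization, and 134 and 132 when the arrays were centred on genes above background. On the diploid arrays the count in either direction was 29 genes (0.146%), 10 genes (0.0504%) and 24 genes (0.121%). From values raised to background, the gap was larger than the range of the 3 diploid arrays for 198 of the 199 genes higher on array 1. It was for 44 of the 44 lower on array 3. The reverse comparison, with the tetraploid range, held for 23 of 29, 8 of 10 and 23 of 24 genes on diploid arrays 1, 2 and 3. Since the genes were chosen for a gap of at least 2-fold, such shares are no separate evidence of a tetraploid excess. The excess was not limited to weakly expressed genes: among the 1986 most highly expressed genes, the median size of the difference was 0.29, 0.21 and 0.22 on the tetraploid arrays and 0.09 to 0.11 on the diploid arrays.

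The most widespread difference among the tetraploid samples followed the chromosomes. Among 9924 genes above the median level, the median difference of a chromosome reached 0.45 on chromosome 1 of array 1 and -0.43 on the same chromosome of array 2, whereas no chromosome of any diploid array went beyond 0.09 in either direction. Beyond that diploid limit lay 16 of the 20 chromosomes on array 1 (80%), 14 on array 2 (70%) and 14 on array 3 (70%); the limit is set by the diploid arrays, so none of their own chromosomes can pass it. Over all 9928 genes above the median level, with or without a position, the median difference was 0.064, -0.0028 and -0.065 on arrays 1, 2 and 3. The chromosome a gene lies on accounted for 17.7%, 14.2% and 9.48% of the variance of the difference on arrays 1, 2 and 3, and for 0.385% to 0.507% on the diploid arrays.

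Array 1 was higher than the others on chromosomes 1, 3, 4, 5 and X, with medians of 0.45, 0.44, 0.43, 0.35 and 0.44. It was lower on chromosomes 8, 10 and 14, at -0.33, -0.31 and -0.31. Array 2 was higher on chromosomes 8, 14 and 16, at 0.44, 0.36 and 0.31, and lower on chromosomes 1, 9 and 13, at -0.43, -0.26 and -0.23. Array 3 was lower on chromosomes 6, 11 and 3, at -0.29, -0.26 and -0.26, and higher on chromosomes 7 and 19, at 0.21 and 0.17. Chromosome 18 differed least between the samples, with medians of -0.02, -0.02 and 0.11.

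These medians were carried by most genes of a chromosome rather than by a few. On chromosome 3, 81.9% of 474 genes had a positive difference on array 1, and on chromosome X 81.4% of 295 genes did. On chromosome 8, 85.2% of 568 genes had a positive difference on array 2 and 81.2% a negative one on array 1. On chromosome 14, 85.4% of 349 genes were positive on array 2.

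**Figure D1:**
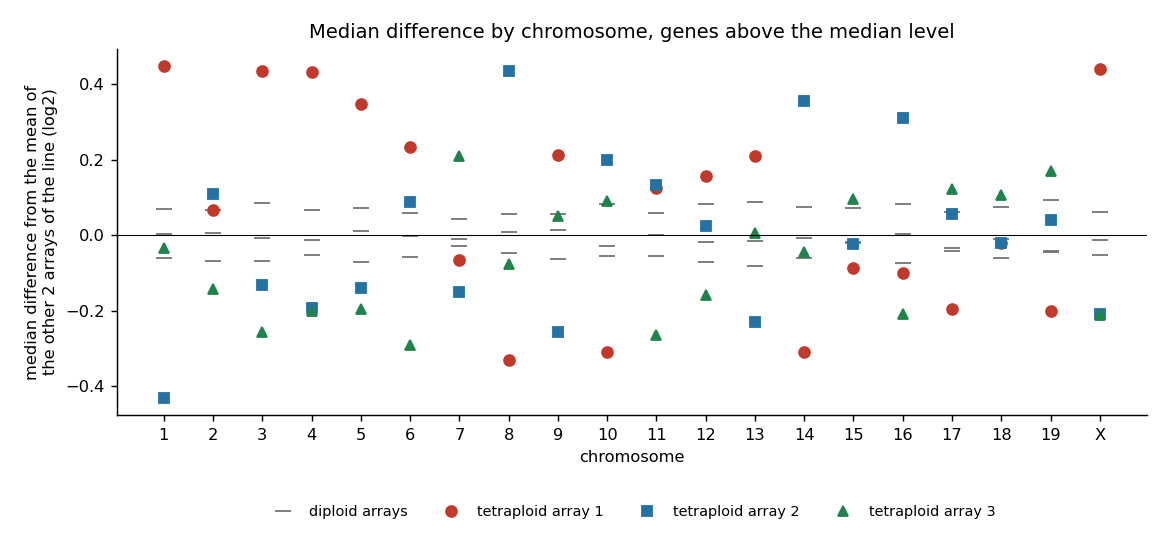
Median difference of each chromosome (vertical axis, log2, array minus the mean of the other 2 arrays of its line) for the 20 chromosomes (horizontal axis). Coloured symbols are the tetraploid arrays and grey dashes the diploid arrays; the diploid values stay within 0.09 of 0, while those of tetraploid array 1 run from -0.33 to 0.45.

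Several chromosomes were not shifted as a whole. When the genes were taken in chromosome order in 319 segments of 30 to 58 genes, 134 segments of array 1 (42%), 93 of array 2 (29.2%) and 73 of array 3 (22.9%) lay beyond the largest diploid segment median of 0.25. On array 1 these were 100 higher and 34 lower segments, and on array 3 they were 13 higher and 60 lower segments. The 4 chromosomes described next, and the places where they are divided, were chosen after their values were seen.

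On chromosome 1, the first 12 segments, 360 genes that end at Gpr25, had a median of 0.74 on array 1, with single segments between 0.57 and 0.91. The following 197 genes, from Camsap2 on, had 0.11. Over the same 2 stretches array 3 went from -0.19 to 0.26, while array 2 stayed low, at -0.46 and -0.36. Thus array 1 was the highest in the first stretch and array 3 in the second.

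On chromosome 4, the 300 genes up to Lrrc41 had a median of -0.46 on array 2, and the 321 genes from Rad54l on had -0.03. Array 1 dropped over the same point from 0.64 to 0.23. On chromosome 8, array 3 lay with array 2 over the first 90 genes, at 0.24 and 0.25, with array 1 at -0.50. Over the other 478 genes array 2 stood alone at 0.46, and array 3 was at -0.13 and array 1 at -0.29. On chromosome 10, the last 58 genes, from the cyclin-dependent kinase gene Cdk4 on, were at -0.58 on array 1 and 0.46 on array 3, while the 420 genes before them were at -0.28 and 0.06. In these stretches the 3 diploid arrays had medians between -0.07 and 0.11.

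**Figure D2:**
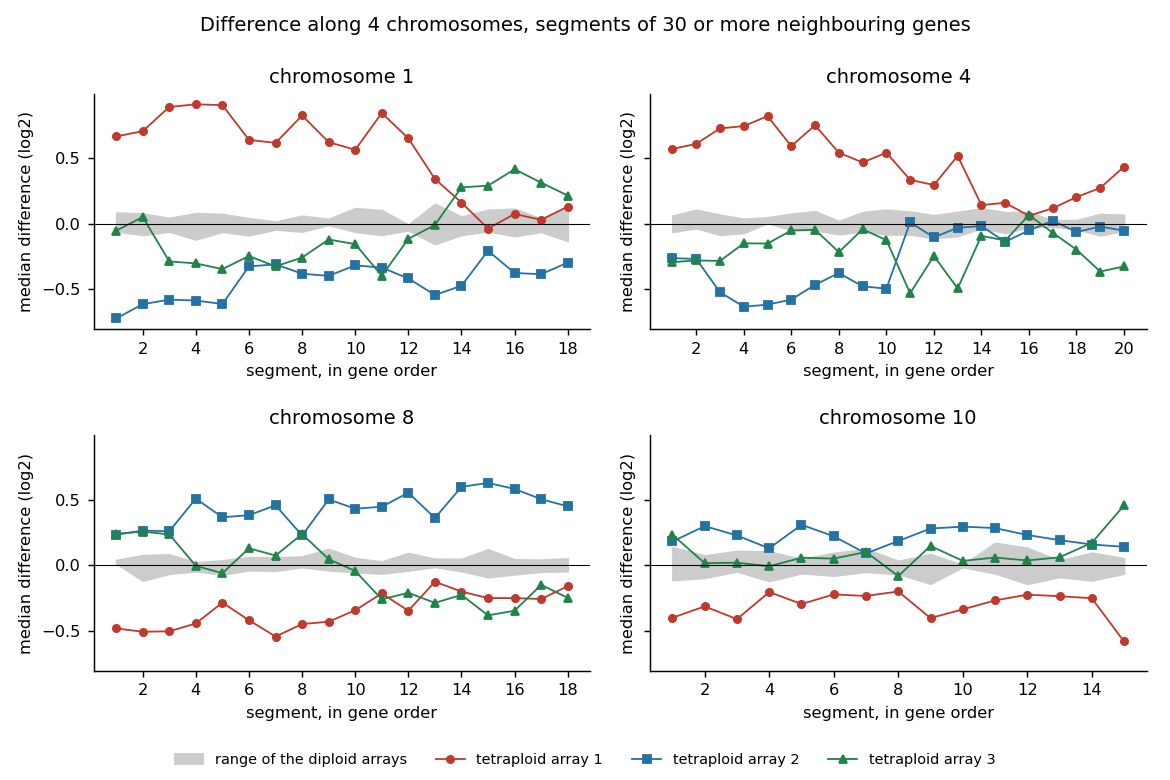
Median difference (vertical axis, log2) of consecutive segments of 30 or more genes along chromosomes 1, 4, 8 and 10 (horizontal axis, segment number in gene order). Lines are the tetraploid arrays and the grey band spans the 3 diploid arrays; array 1 drops on chromosome 1 from segments of 0.57 to 0.91 to segments of -0.04 to 0.34, and array 2 returns to near 0 over the second part of chromosome 4.

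The genes that set array 1 apart upward lay largely on the chromosomes that were shifted upward on it. Chromosomes 1, 3, 4, 5 and X held 149 of these 199 genes, 74.9%, although they hold 26.1% of the 11754 genes above background on at least 1 tetraploid array; chromosome 1 alone held 58 and chromosome 4 held 40. Many lay close together in gene order, with 52 of the genes in 24 runs, mostly pairs. Examples, named after their values were seen, are Rpe, Acadl and Bard1 on chromosome 1 and Tdrd7, Tstd2 and Ncbp1 on chromosome 4. Other genes can lie between the members of a run. On chromosome 1, 8.8% of the 659 genes above background set array 1 apart upward. How many runs such a density alone gives was not tested. The concentration on shifted chromosomes was weaker elsewhere: chromosomes 8, 10 and 14 held 33 of the 96 genes lower on array 1, 34.4%, against 13.9% of genes above background. Chromosomes 8, 14 and 16 held 27 of the 77 genes higher on array 2, 35.1%, against 12.3%, but these were 16 genes on chromosome 8, 11 on chromosome 16 and 0 of the 407 on chromosome 14, although its median on array 2 was 0.36. When the median deviation of each chromosome was taken out of each array, an alternative added after the data were seen, 70 of the 199 genes higher on array 1 still met the rule, and the counts on array 1 became 89 higher and 115 lower. Of the 96 genes lower on array 1, 72 still did, as did 44 of 77 and 62 of 95 for array 2 and 53 of 67 and 27 of 44 for array 3.

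Single genes or pairs of nearby genes lay much further apart than the chromosome medians. The largest distances of all were seen at genes that were near the top of the expression range on 2 arrays and below background on the third. Dlk1, an imprinted, NOTCH-related membrane protein of immature mesenchymal cells, was at 13.35 and 13.08 on arrays 1 and 2 and at 6.14 on array 3, at least 61.1-fold lower. The diploid arrays lay between these, at 8.88, 9.24 and 10.25. Igf2, an imprinted fetal growth factor, was at 12.41 and 12.37 on arrays 1 and 3 and at 6.85 on array 2, at least 31.6-fold lower, with the diploid arrays at 12.98, 12.70 and 12.92. Itm2a, a membrane protein of mesenchymal and muscle precursors, was at 11.25 and 11.79 on arrays 1 and 3 and at 2.42 on array 2, at least 17.3-fold lower. For Igf2 and Itm2a, arrays 1 and 3 lay within 1 on the log2 scale of the diploid mean, and array 2 did not.

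**Figure D3:**
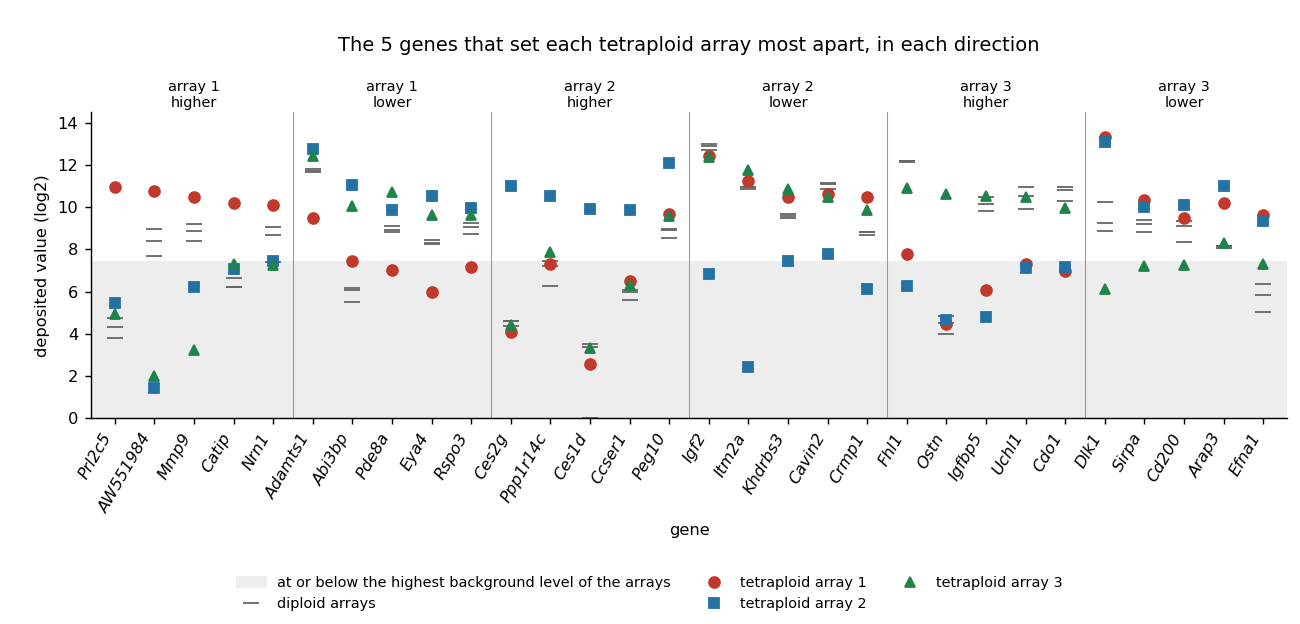
Deposited log2 values (vertical axis) of the 5 genes with the largest difference in each direction on each tetraploid array (horizontal axis, grouped by array and direction). Coloured symbols are the tetraploid arrays, grey dashes the diploid arrays and the shaded area lies at or below 7.41, the highest background level among the arrays; Igf2 and Dlk1 stand above 12 on 2 tetraploid arrays and below background on the third.

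On array 1, the 10 genes with the largest upward differences were Prl2c5, AW551984, Mmp9, Catip, Nrn1, Stk39, Bhlhb9, Kcnh2, Stmn2 and Arxes2. Prl2c5, a gene of the placental prolactin and proliferin family, was at 10.97 on array 1 and at 5.46 and 4.95 on arrays 2 and 3, at least 12.3-fold higher. Its family has near-identical members, so the probe set may read more than 1 of them. Mmp9, a secreted gelatinase that cuts basement membrane collagen, was at 10.47, 6.22 and 3.22 on arrays 1, 2 and 3, at least 8.72-fold higher. Stmn2, a microtubule-destabilising protein best known from neurons, was at 9.74, 3.09 and 4.03, and Stk39, a kinase that regulates ion cotransporters, was at 10.07, 4.44 and 6.62. For Mmp9, Stmn2 and Stk39 the diploid arrays were also above background, at means of 8.82, 8.67 and 9.90, so it was arrays 2 and 3 that lacked a level the diploid line had. Prl2c5 was below background on all 3 diploid arrays. Kcnh2, a potassium channel, was at 9.80 on array 1 and at 7.39 and 6.03 on the others, and it too was below background in the diploid line.

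The 10 genes with the largest downward differences on array 1 were Adamts1, Abi3bp, Pde8a, Eya4, Rspo3, Adamts5, Dkk3, Cryab, Agtr2 and Sulf2. Adamts1, a protease of large proteoglycans, was at 9.48 on array 1 and at 12.77 and 12.44 on arrays 2 and 3, 8.75-fold lower. Adamts5, its neighbour on chromosome 16 and a related aggrecanase, was at 7.57, 9.67 and 10.28, 5.29-fold lower. Abi3bp, a matrix protein that binds collagen and cells, was at 7.46, 11.07 and 10.08, 8.64-fold lower. Dkk3, a secreted protein of the dickkopf family, was at 3.31 against 9.62 and 9.50, at least 5.20-fold lower, and Sulf2, which trims sulfate from heparan chains outside the cell, was at 7.11 against 9.37 and 9.61. Cryab, a small heat shock protein, was at 6.89 against 9.65 and 9.47. Array 1 was the array furthest from the diploid mean for Adamts5, Dkk3, Cryab and Sulf2, whose diploid means were 11.08, 9.99, 11.86 and 11.31.

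On array 2, the 10 largest upward differences belonged to Ces2g, Ppp1r14c, Ces1d, Ccser1, Peg10, Lrrn3, Ly6a2, Krt19, Nkain4 and Fbxo2. Ces2g and Ces1d, carboxylesterases that cleave esters of lipids and drugs, both lie on chromosome 8. Ces2g was at 4.10, 11.00 and 4.43 on arrays 1, 2 and 3, at least 13.6-fold higher, and Ces1d was at 2.56, 9.92 and 3.32. Both were below background on every diploid array. Peg10, an imprinted gene derived from a retroelement, was at 9.67, 12.12 and 9.60, 5.60-fold higher, with a diploid mean of 8.80 ± 0.23 (SD, n = 3). Krt19, a keratin of simple epithelia and mesothelium, was at 6.77, 9.86 and 8.18, and Csf1r, the receptor of macrophage colony-stimulating factor, was the only macrophage and leukocyte marker that set array 2 apart, at 6.65, 8.55 and 5.61. The medians of these marker lists on array 2 were -0.07 for epithelial, 0.41 for mesothelial and 0.18 for macrophage and leukocyte genes, each within the largest diploid median of its list. The part of other cell types in these values was not tested.

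The 10 largest downward differences on array 2 were those of Igf2, Itm2a, Khdrbs3, Cavin2, Crmp1, Cnn1, Kcnab1, Arhgdib, Serpina3n and Vldlr. Cavin2, a coat protein of caveolae, was at 10.64, 7.79 and 10.50 on arrays 1, 2 and 3, 6.84-fold lower. Cnn1, a calponin that binds actin in smooth muscle cells and myofibroblasts, was at 10.70, 8.43 and 11.57, 6.51-fold lower. Khdrbs3, an RNA-binding splicing regulator, was at 10.50, 7.45 and 10.87, and Crmp1, a cytoskeletal phosphoprotein, was at 10.46, 6.13 and 9.85. Arhgdib was at 10.19, 6.87 and 9.49, and Vldlr, a lipoprotein receptor, at 10.11, 8.06 and 10.49. The rule itself places array 2 at least 2-fold below both other arrays in each of these genes. The diploid arrays lay above background in all 10 genes, at means between 8.77 and 12.87.

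On array 3, the 10 largest upward differences were those of Fhl1, Ostn, Igfbp5, Uchl1, Cdo1, Igfbp7, Pde8b, Akap12, Podn and H2bc4. Fhl1, a LIM protein of muscle and stromal cells, was at 7.78, 6.29 and 10.91 on arrays 1, 2 and 3, at least 9.96-fold higher, with a diploid mean of 12.16. Igfbp5 and Igfbp7, secreted proteins of the insulin-like growth factor binding family, were at 6.08, 4.78 and 10.52, and at 8.08, 7.79 and 10.51. Uchl1, a ubiquitin hydrolase, was at 7.30, 7.13 and 10.49, and Akap12, a scaffold for protein kinase A, at 9.51, 9.21 and 11.75. All 10 genes except Ostn had a diploid mean above background, from 8.48 to 12.59, and in all of these except Podn array 3 was the tetraploid array nearest to it. Ostn, a peptide hormone of bone and muscle, was at 4.48, 4.65 and 10.61 and was below background on the diploid arrays.

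The 10 largest downward differences on array 3 were those of Dlk1, Sirpa, Cd200, Arap3, Efna1, Ephb6, Itga3, Adgrg1, Alcam and Sned1. Sirpa and Cd200, immunoglobulin-like receptors and ligands that restrain phagocytes, were at 10.35, 10.03 and 7.22, and at 9.49, 10.11 and 7.25 on arrays 1, 2 and 3. Efna1, a ligand of ephrin receptors, was at 9.63, 9.36 and 7.29, 4.61-fold lower, and the ephrin receptor gene Ephb6 was at 8.86, 9.23 and 6.56. Itga3, a laminin-binding integrin subunit, was at 9.90, 9.38 and 7.94, 3.25-fold lower. For Efna1, Ephb6 and Adgrg1 the diploid arrays were below background, as array 3 was for Ephb6 and Adgrg1. Over all genes set apart, the array was also compared with the mean of the other 2 tetraploid arrays, from values raised to background. Array 3 lay nearer the diploid mean than that pair mean did in 52 of the 67 genes higher on it and in 33 of the 44 lower. The same held for array 2 in 10 of 77 and 23 of 95 genes, and for array 1 in 66 of 199 and 43 of 96. The share among all genes is not given here, so these counts cannot be told apart from a trait of the whole array.

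Around the most extreme genes, the nearest genes above background on at least 1 tetraploid array were looked at in gene order. This choice was made after the values were seen. Genes below background on all 3, such as Rtl1 near Dlk1, were left out. Genes called next to each other, or a number of genes away, may therefore have others between them. Next to Itm2a on chromosome X, Lpar4, a receptor of lysophosphatidic acid, was at 8.44, 3.69 and 9.37, low on the same array. The flanking genes Pgk1 and 4933401B06Rik were at 12.87, 12.14 and 12.29, and at 7.24, 7.42 and 6.83. Next to Igf2 on chromosome 7, Mrpl23, a mitochondrial ribosomal protein, was at 9.80, 7.61 and 9.83, again low on array 2, and Lsp1, 4 genes away, at 10.97, 9.58 and 10.51. On the other side of Igf2, Ins2 and Cd81 were not low on array 2, at 8.25, 8.62 and 8.49, and at 11.49, 11.50 and 12.16. Dlk1 was alone: Meg3, the maternally expressed long RNA next to it, was at 10.79, 10.09 and 11.39 and so was highest on the array where Dlk1 was below background. Around Adamts1 and Adamts5, App and Ltn1 were at 11.85, 11.92 and 12.35, and at 10.01, 10.23 and 9.95, with array 1 not set apart. Between Adamts5 and Ltn1, N6amt1 was at 7.26, 8.63 and 7.49, more than 2-fold higher on array 2 than on both others.

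**Figure D4:**
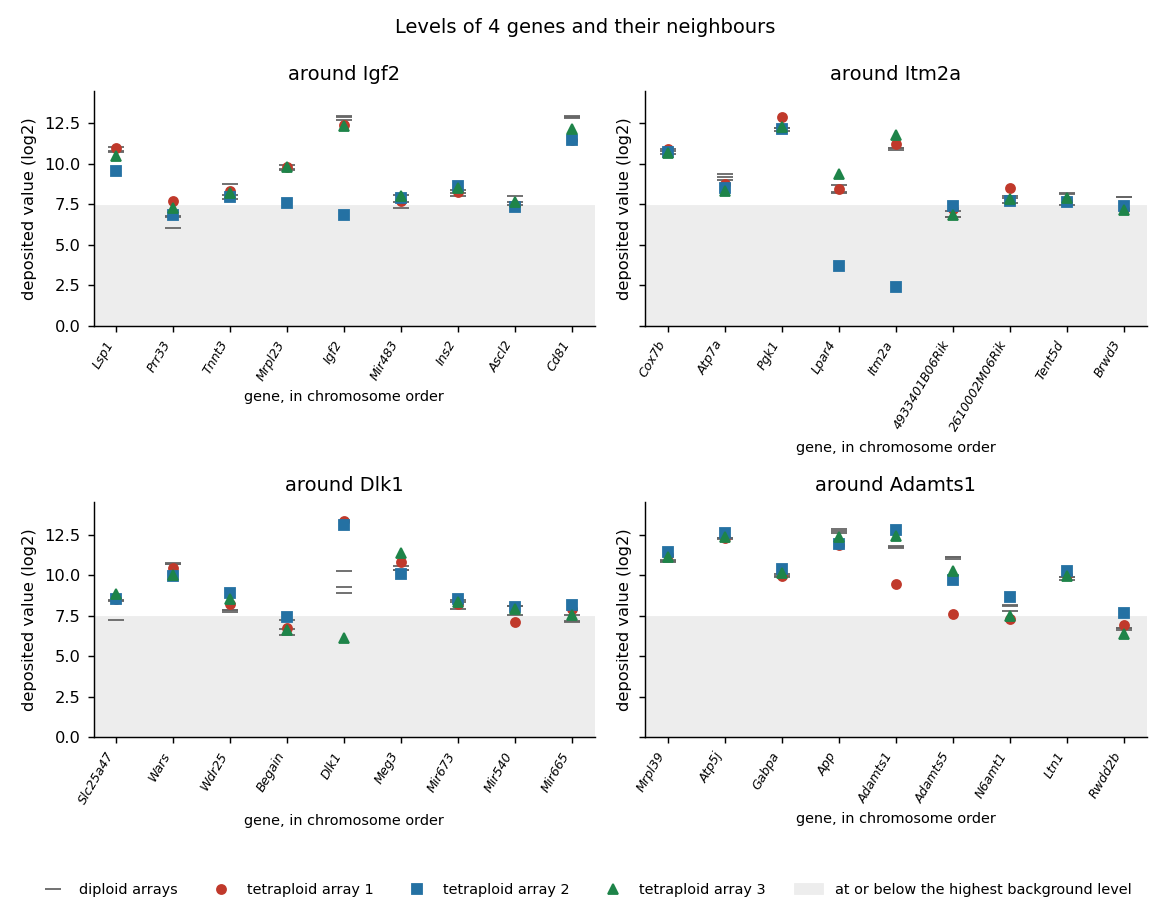
Deposited log2 values (vertical axis) of Igf2, Itm2a, Dlk1 and Adamts1 and of nearby genes in chromosome order (horizontal axis). The nearby genes are the 4 nearest on each side that were above background on at least 1 tetraploid array. Coloured symbols are the tetraploid arrays, grey dashes the diploid arrays, and the shaded area lies at or below 7.41; Lpar4 and Mrpl23 are low on array 2 together with Itm2a and Igf2, and Meg3 is not low on array 3.

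Functions were followed through 45 gene lists. A list was counted for an array where its median difference was at least 0.2 in size and beyond the largest median of the list on any diploid array. That held for 20 lists on array 1 (44.4%), 12 on array 2 (26.7%) and 19 on array 3 (42.2%). With values raised to the background level, as for the counts of single genes, it held for 6, 4 and 9 lists. Over all genes the median difference was 0.03, 0.02 and -0.03 on arrays 1, 2 and 3. Among the lists described next, ribosome biogenesis, proteasome and DNA replication genes were highest on array 1 and lowest on array 3, matrix and contractile genes were highest on array 3, and genes of glycolysis and hypoxia and of the unfolded protein and amino acid stress responses were lowest on array 2.

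Genes of cell growth separated arrays 1 and 3. The 35 genes of ribosome biogenesis, which process ribosomal RNA in the nucleolus and are often activated by MYC, had medians of 0.54, -0.11 and -0.45 on arrays 1, 2 and 3, against at most 0.25 on the diploid arrays. Of these, 33 were positive on array 1 and 2 on array 3. Wdr12, Rrp9, Nop58 and Ddx18, 4 of the 35, set array 1 apart upward, against 1% of all genes, and Ddx18, an RNA helicase, was at 12.50, 11.42 and 11.36. Nop58, a core protein of small nucleolar particles, was at 11.67, 10.62 and 10.47. Wdr12, Nop58 and Ddx18 lie on chromosome 1, and with chromosome medians taken out the list median on array 1 was 0.36 and on array 3 -0.33. The 30 proteasome subunits had medians of 0.41, -0.02 and -0.39, against at most 0.07 in the diploid line, and none of them set an array apart alone. With chromosome medians taken out these became 0.28, -0.03 and -0.24.

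The 39 genes of DNA replication and the G1/S step had medians of 0.48, -0.05 and -0.44, just beyond the diploid limit of 0.42. Positive differences were found in 34 of them on array 1 and in 3 on array 3. E2f1, a transcription factor of S phase entry named here after its values were seen, was at 9.70, 8.63 and 8.53. Mitosis genes, in contrast, had medians of 0.24, -0.05 and -0.16, well inside the largest diploid median of 0.64. The diploid samples thus differed among themselves in mitosis genes by more than the tetraploid samples did.

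Matrix genes were highest on array 3. The 38 genes of the fibrillar matrix had medians of -0.24, -0.14 and 0.52, with 32 of 38 positive on array 3, against at most 0.18 in the diploid line. The 21 basement membrane genes had -0.30, 0.03 and 0.43, and the 26 matrix proteases and inhibitors -0.34, 0.04 and 0.46. After values were raised to background, the basement membrane medians were -0.16 on array 1 and 0.027 on array 3, so that list was counted on neither. Adipocyte and skeletal muscle markers had the same order. The medians were -0.37, -0.07 and 0.39 for adipocyte markers, of which 12 of 19 were below background on all 3 tetraploid arrays. They were -0.25, -0.02 and 0.33 for skeletal muscle markers, of which 17 of 27 were. Both turned to -0.013 on array 3 after raising values to background. Cartilage and bone markers, of which 11 of 21 were below background on all 3, had the opposite order, at 0.32, -0.06 and -0.12. Their median on array 1 turned negative after raising values to background. The part of such cells in the matrix values was not tested. In the fibrillar matrix list, 4 of 38 genes set array 1 apart downward, against 0.483% of all genes. Col12a1, a collagen on the surface of fibrils, was at 7.97, 9.57 and 10.34. Aspn and Ogn, small leucine-rich proteoglycans encoded close together on chromosome 13, were at 9.61, 11.35 and 11.71, and at 10.26, 12.03 and 11.89. Mfap2, a microfibril protein, was at 9.17, 10.59 and 10.95. In the protease list, Htra1, Adam12 and Adam19, 3 of 26, set array 2 apart downward, against 0.478% of all genes, and Htra1, a secreted serine protease, was at 10.62, 9.05 and 10.68. Col1a1, the main fibrillar collagen, was at 12.78, 13.02 and 13.35, in the same order as the list median.

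**Figure D5:**
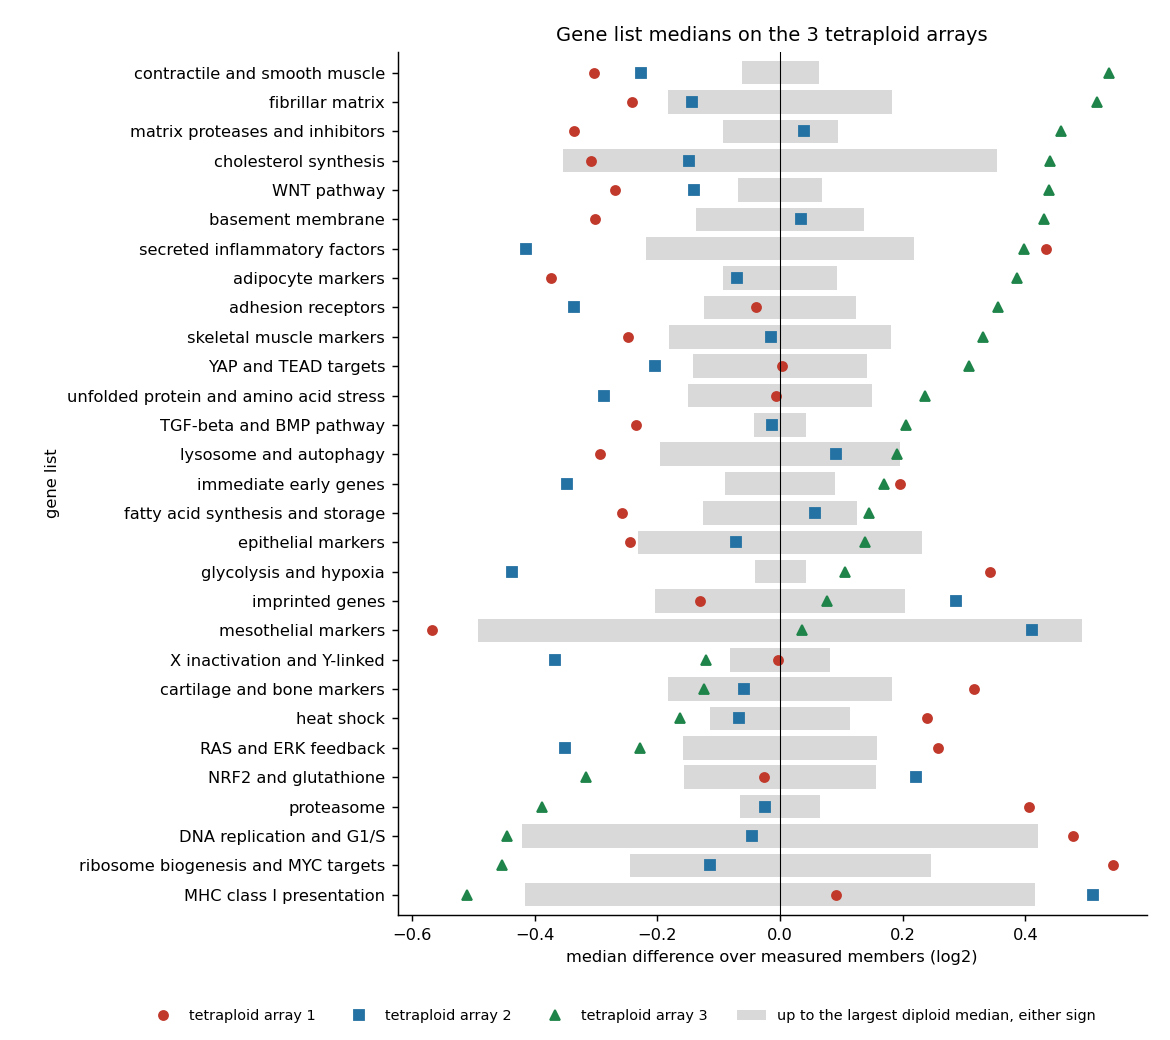
Median difference over the measured members (horizontal axis, log2) of each gene list beyond the diploid range on at least 1 tetraploid array (vertical axis). Coloured symbols are the tetraploid arrays and each grey bar reaches to the largest diploid median of the list in either direction; array 3 is highest in contractile (0.54) and fibrillar matrix genes (0.52), and array 1 in ribosome biogenesis genes (0.54).

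The contractile and smooth muscle list had medians of -0.30, -0.23 and 0.54 on arrays 1, 2 and 3, against at most 0.06 in the diploid line. Raised to background, the median on array 1 was -0.16, below the size needed. Acta2, the actin of smooth muscle and myofibroblasts, was at 13.20, 12.62 and 13.96, and Tagln, an actin-binding protein of the same cells, was at 11.12, 9.88 and 12.21. Cnn1, Csrp1 and Tagln2, 3 of 26, set array 2 apart downward, against 0.478% of all genes. Csrp1, a LIM protein of the actin skeleton, was at 11.50, 10.25 and 11.53, and Tagln2 was at 10.91, 9.90 and 11.02. Myl9, a regulatory light chain of myosin, set array 3 apart upward at 10.23, 9.59 and 11.97. The mean of the other pair decides the sign on array 1: against array 2 alone the list median on array 1 was 0.02. Acta2, Tagln, Cnn1 and Myl9 were all highest on array 3.

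Many contractile genes are controlled by serum response factor, which binds a sequence called the CArG box. Among 22 members with a promoter window, 4 held a CArG box (2 C, 6 A or T, 2 G, read on both strands) in the 250 bases before the start, or 18.2%, against 1.25% of 15563 genes. None of the 3 members lower on array 2 held one there. Myl9 did, which is 1 of 2 members that set array 3 apart upward, and the other had no promoter window. At a share of 18.2%, 3 genes are too few to read a difference from this. The upstream sequences of Myl9, as far as the first annotated base of the gene, and of Tagln2 are shown because these genes set array 3 and array 2 apart. They are from RefSeq on GRCm38.p6, on the plus strand, at chr2:156775214-156775407 and chr1:172499996-172500245, with the CArG box in capitals.
Myl9: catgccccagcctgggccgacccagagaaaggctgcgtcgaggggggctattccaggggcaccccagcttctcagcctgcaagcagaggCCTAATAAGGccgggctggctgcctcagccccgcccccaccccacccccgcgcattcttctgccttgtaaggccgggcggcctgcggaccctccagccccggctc
Tagln2: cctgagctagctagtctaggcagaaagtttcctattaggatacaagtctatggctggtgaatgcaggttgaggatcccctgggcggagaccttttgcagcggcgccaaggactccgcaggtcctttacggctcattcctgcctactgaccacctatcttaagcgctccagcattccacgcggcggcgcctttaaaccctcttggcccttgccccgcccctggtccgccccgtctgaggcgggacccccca
A match is a description of the letters and not of binding. The same count was made for the protease list with the AP-1 motif TGANTCA, read on both strands, which 4 of 16 members (25%) and 948 of 15563 genes (6.09%) held, and neither of the 2 members lower on array 2 with a window did. With so few genes, no difference can be read from this either.

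Signalling lists did not share 1 order. The 40 genes of the WNT pathway had medians of -0.27, -0.14 and 0.44 on arrays 1, 2 and 3, against at most 0.07 in the diploid line; raised to the background level, those on arrays 1 and 3 were -0.19 and 0.13, below the size needed. Rspo3, a secreted enhancer of WNT signalling, the dickkopf gene Dkk3 and the receptor gene Fzd1 set array 1 apart downward. These are 3 of the 40, against 0.483% of all genes. Rspo3 was at 7.16, 9.94 and 9.62, and Fzd1 at 9.75, 10.77 and 11.19. The TGF-beta and BMP genes had medians of -0.24, -0.01 and 0.21, and the diploid limit was 0.04; these became -0.16 on array 1 and 0.064 on array 3 after raising values to background. The feedback genes of RAS and ERK signalling had another order, highest on array 1, at 0.26, -0.35 and -0.23 with a diploid limit of 0.16, and 0.081, -0.19 and -0.043 after raising values to background. With chromosome medians taken out their median on array 3 was -0.11. Genes of the NOTCH and Hedgehog pathways had -0.17, 0.11 and 0.11, below the size needed. The 60 receptor tyrosine kinases and ligands had medians of -0.07, -0.06 and 0.20, below the size needed. In that list single genes stood apart in both directions. Efna5, Egfr and Igfbp4 were low on array 1, Egfr, the receptor of epidermal growth factor, at 8.81, 10.42 and 9.86. Igf2, Pdgfa and Pdgfc were low on array 2, and Pdgfa and Pdgfc, ligands of the platelet-derived growth factor receptors, were at 9.48, 7.87 and 8.99, and at 10.39, 8.94 and 10.18. Ereg and Efnb1 were high on array 1, Ereg, a ligand of epidermal growth factor receptors, at 8.63, 7.55 and 7.51, and Efnb1, an ephrin, at 9.92, 8.62 and 8.01. On array 3, Igfbp5 and Igfbp7 were high and Efna1 was low, at the values given above.

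Array 2 was the lowest in glycolytic genes and in 1 of the stress lists. The 37 genes of glycolysis and the hypoxia response had medians of 0.34, -0.44 and 0.11, against at most 0.04 in the diploid line, and 29 of the 37 had a negative difference on array 2. Aldoa and Ldha, enzymes of glycolysis shown as examples after their values were seen, were at 12.42, 11.61 and 12.40, and at 12.74, 12.23 and 12.55. Egln3, an oxygen-sensing hydroxylase, was at 8.85, 6.56 and 8.90. With chromosome medians taken out the list median was -0.45 on array 2 and 0.15 on array 1, and after raising to background it was -0.38 and 0.15, so the list was no longer counted on array 1. The 35 genes of the unfolded protein and amino acid stress responses had medians of -0.01, -0.29 and 0.24, against at most 0.15 in the diploid line, and 0.18 on array 3 after raising to background. Vldlr, Trib3, Chac1 and Sesn2, 4 of the 35, set array 2 apart downward, against 0.478% of all genes. Trib3, a pseudokinase induced by stress, was at 10.19, 9.08 and 10.46. Chac1, an enzyme that degrades glutathione, was at 8.96, 7.75 and 8.84, and Sesn2, a sestrin that restrains mTOR signalling, at 8.90, 7.76 and 8.81. The adhesion receptors had medians of -0.04, -0.34 and 0.35, with a diploid limit of 0.12, but after raising values to background these were 0.043 on array 2 and 0.032 on array 3, so the list was counted on neither. Other stress lists differed: heat shock genes were lowest on array 3, at 0.24, -0.07 and -0.16, and the 33 genes of NRF2 and glutathione were highest on array 2, at -0.03, 0.22 and -0.32. The heat shock medians became 0.06, 0.02 and -0.03 once chromosome medians were taken out, so that list was no longer counted on array 1. With chromosome medians taken out, NRF2 and glutathione had 0.28 on array 2 and -0.14 on array 3, so the list was no longer counted on array 3, and after raising to background it had 0.18 on array 2.

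Cholesterol synthesis genes were highest on array 3. The 20 measured members had medians of -0.31, -0.15 and 0.44, and 19 of 20 were positive on array 3; the diploid limit was 0.35. Genes of MHC class I presentation had 0.09, 0.51 and -0.51, with a diploid limit of 0.42 and 12 measured members. With chromosome medians taken out these became 0.29, 0.18 and -0.61, so array 2 was no longer counted or the highest, and from values raised to background the median on array 3 was -0.035. Interferon response genes had 0.32, -0.03 and -0.38, but the diploid arrays differed by up to 0.74, so the tetraploid differences are within that spread. The cytosolic ribosomal proteins and oxidative phosphorylation genes were close to even, with medians between -0.09 and 0.13.

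Among genes of cell identity, the mesenchymal transcription factors had small medians, 0.06, 0.15 and 0.00. Yet Meox1, Gata6, Foxc1 and Emx2, 4 of 59, set array 1 apart downward, against 0.483% of all genes. Gata6, a zinc finger factor of mesoderm and endoderm, was at 8.66, 10.41 and 9.77, and Meox1, a homeobox factor of somites, at 7.25, 9.04 and 8.39. Imprinted genes were among the most divergent single genes although their list medians were -0.13, 0.29 and 0.08. Of 28 measured, 1 set a diploid array apart, against 0.317% of all genes. On the tetraploid arrays 5 of the 28 did, 17.9%, against 2.91% of all genes. Besides Igf2, Dlk1 and Peg10 these were Mest, low on array 1 at 9.86, 11.40 and 11.77, and Plagl1, high on array 3 at 7.43, 8.16 and 9.70. They lie on chromosomes 6, 7, 10 and 12, and no array held all of them in 1 direction.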

How the data were processed

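Per the labels, total RNA of 3 tetraploid and 3 diploid samples was reduced in ribosomal RNA and hybridised to whole-transcript Affymetrix arrays, 1 sample per array. The authors deposited log2 values for 28944 probe sets; per the submitters' processing notes they were made with Affymetrix Expression Console, whose version and algorithm are not given in the sources used here. Every column matched 1 sample by its title. The probe annotation gave 1 gene symbol to 21789 probe sets, several to 1621 and none to 5534. Of those with 1 symbol, 21698 matched a RefSeq gene (GRCm38.p6, used for names, chromosome and gene order), and each gene was represented by its probe set of highest mean level, giving 19856 genes. No further normalization was applied. Differences, the background level and the rule for genes that set an array apart are defined in the report. Chromosome and segment medians used genes above the median level. The genes named are the 10 with the largest difference per array and direction, after raising to background, and up to 6 members per list with at least 3 members apart on 1 array in 1 direction; others are said to be chosen after their values were seen. The 45 lists and the alternatives were chosen with earlier results of these data known. No test was made, since each array is 1 sample and 3 arrays a line limit the precision. The calculations were tested on simulated data. Python 3.11.15, numpy 2.4.6 and pandas were used.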

Additional observations from a re-analysis of the deposited data

Results flagged for a closer look

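The 7246 probe sets with no single current gene, which entered no comparison of the genes, were passed through the same rule, and more of them than on any diploid array were set apart on tetraploid arrays 1 and 2. Of these, 44 set tetraploid array 1 apart and 18 set tetraploid array 2 apart, against 5, 1 and 15 on the diploid arrays. On tetraploid array 3 the number was 14, below the highest diploid number.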

How the results depend on the processing

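No paired analysis was possible because the results come from no test and the replicate numbers tie no tetraploid sample to a diploid one; same-numbered differences correlated across genes at 0.10, 0.03 and -0.05. The numbers of genes that set arrays 1, 2 and 3 apart were 1019, 735 and 629 with no background level, 163, 80 and 45 with the background at the 99th percentile, 1338, 669 and 577 at a distance of 1.5-fold, 23, 22 and 15 at 4-fold, and 591, 393 and 301 when only the difference from the mean of the other pair was used. Among genes above background on all 3 tetraploid arrays there were 110 for array 2 and 61 for array 3. With 1 tetraploid array left out, the difference is from the 1 remaining array, and the counts were 770 to 858 for array 1, 463 to 858 for array 2 and 463 to 770 for array 3. The 90th percentile, the mean over probe sets, quantile normalization, centring on expressed genes and taking out chromosome medians (chosen after seeing the data) kept each of these 3 totals within 1.5 times. Array 1 had the most genes in every setting with all 3 arrays. The number of chromosomes beyond the diploid limit was 10 to 19 per array over all alternatives run, each within 1.5 times. With array 3 or array 1 left out, the median of chromosome X on array 2 was -0.42 or 0.0070, and with array 2 or array 1 left out that of chromosome 4 on array 3 was -0.40 or 0.014; on chromosome 4 this hides stretches in which arrays 2 and 3 differed in opposite directions. With values raised to the background level, 6, 4 and 9 lists were beyond the diploid range; members below background then differ only by the background levels of the arrays. In that setting, secreted inflammatory factors turned to -0.16, 0.18 and -0.013 on arrays 1, 2 and 3, cartilage and bone markers to -0.16 on array 1, adhesion receptors to 0.043 and X inactivation and Y-linked genes to 0.18 on array 2, and skeletal muscle and adipocyte markers to -0.013 on array 3. Taking out chromosome medians turned cartilage and bone markers on array 1 to -0.060. With 1 other array left out, array 1 ranged from -0.31 to 0.53 in secreted inflammatory factors, from -0.044 to 0.12 in cartilage and bone markers and from -0.49 to 0.024 in the contractile list, and array 3 from -0.060 to 0.14 in RAS and ERK feedback. Of the 100 alternative chromosome medians, 39 moved by less than the SD of the diploid arrays, 59 moved by more with the same sign and 2 reversed; of 357 list medians these numbers were 246, 98 and 13. Array medians alone cannot show whether a whole array was shifted, and values near background have no order.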
